A study of Mus musculus with 12 samples.

Results

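Gene expression was compared between mice labelled Smad3-/- and wild-type mice, both kept on a regular diet. The comparison takes 4 of the series' 12 Affymetrix arrays, 2 (a and b) from knockout mice and 2 from wild-type mice, and subtracts the wild-type mean from the knockout mean for each of 18194 genes. Each gene is represented by 1 probe set, the one with the highest mean over the 12 arrays among those that name only that gene. Wild-type mice were C57BL/6. Smad3-/- mice were of a mixed C57BL/6 and NIH Black Swiss stock, so genotype and strain cannot be told apart here. The same genotypes on a high fat diet (55% fat), with 2 arrays each, and a separate experiment on diet-induced obese mice of a strain written C57J/B6, given the anti-TGF-beta clone 1D11 or the IgG clone 13C4, with 2 arrays each, are used only to set the regular diet values in context. The labels give no tissue and no age, and they name no promoter or Cre that would limit the loss of Smad3 to a cell type. The series title asks whether blocking TGF-beta and Smad3 protects from obesity and diabetes. This comparison asks how the genotypes differ before any fat challenge.

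TGF-beta binds a pair of receptor kinases at the cell surface, which phosphorylate Smad2 and Smad3; these join Smad4, enter the nucleus and bind DNA. The pathway is known for switching on matrix and contractile genes in fibroblasts and smooth muscle and for holding back the maturation of fat cells. White fat cells store triglyceride and secrete leptin and adiponectin, whereas brown and beige fat cells burn fatty acids in mitochondria uncoupled by Ucp1.

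All values are log2 intensities, and differences are knockout minus wild type in log2 units, so 1 unit is a doubling. A gene was called when its Benjamini-Hochberg adjusted p from limma, over all 18194 genes, was under 0.05, and rose or fell below refers to called genes. Small counts were fragile, since of 59 list counts from 1 to 5, 29 moved by over 1.5 times when 1 of the 4 arrays was left out, against 4 of 40 larger counts, which are named beside their results. The SE of a difference ran from 0.0953 to 0.244 with a median of 0.136. The labels do not say whether arrays a and b are different animals, and p-values thus measure the spread between arrays, which may be technical. The arrays also measure bulk RNA, in which fewer cells of a type and less RNA per cell cannot be told apart.

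Some features of the arrays stand before any result. Adipoq, the fat-cell hormone adiponectin, read 13.91 and 14.00 on the wild-type arrays and 13.12 and 13.01 on the knockout arrays against array medians of 6.32 to 6.39, so the labelled mice gave RNA rich in a fat-cell transcript. Smad3 itself read 8.86 and 8.94 on the wild-type arrays and 9.10 and 9.16 on the knockout arrays, a difference of 0.23 (SE 0.105, limma adjusted p = 0.117), which after repeated quantile normalization was 0.48 (limma adjusted p = 0.000821). No source used here places its probe sets inside or outside the deleted sequence, so this reading checks nothing about the genotype. The 3' and 5' control probe sets of Gapdh, whose gap widens as RNA degrades, differed by 0.118 and 0.144 on the wild-type arrays and by 0.278 and 0.406 on the knockout arrays. The actin pair differed by 0.799 and 0.768 on the wild-type arrays and by 0.965 and 1.116 on the knockout arrays. Xist lay between 7.96 and 8.28 and the Y-linked Eif2s3y between 5.67 and 6.15 on all 8 diet and genotype arrays. On the 4 antibody arrays Xist read 6.11 to 6.32 and Eif2s3y 8.07 to 8.49. The Y-linked Kdm5d read 5.77 to 6.57 on the 8 arrays and 6.18 to 6.66 on the 4. Uty, also Y-linked, read 6.72 to 7.09 and 6.43 to 6.66. The sex of the mice was not tested. Of 4 sex-linked genes, 0 were called between the genotypes by limma, 1 at an unadjusted p under 0.05 and 0 after either other scaling.

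Markers of other tissues differed widely between these arrays. The summed level of the epididymal list, taken as log2 of the sum of the members' linear values, was 12.52 and 12.54 on the wild-type arrays and 16.86 and 16.88 on the knockout arrays. For 28 smooth muscle and pericyte genes the sum was 16.07 and 16.18 in wild type and 13.78 and 13.70 in the knockout. For 19 fast skeletal muscle genes it was 12.33 and 12.23 in wild type and 11.49 and 11.45 in the knockout. These shifts run between the same arrays as every difference below, and their part in the other results was not tested.

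On the regular diet the genotypes differed broadly, with more decreases than increases in the knockout but larger extreme increases. Of 18194 genes, 4361 were called, which is 24.0% (1528 higher, 8.4%, and 2833 lower, 15.6%), with a median difference over all genes of 0.042. Every list count below stands against these shares. Repeating quantile normalization over the 12 arrays moved the higher share of the calls from 35.0% to 48.7%, and centring each array on its median moved it to 26.0%. At a difference of at least 1 log2 unit, 287 genes rose and 584 fell. At 3 units or more the order turned, with 53 higher and 19 lower, and at 4 units it was 29 against 4. The 2 arrays of wild type did not overlap with the 2 of the knockout for 59.3% of all genes.

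**Figure D1:**
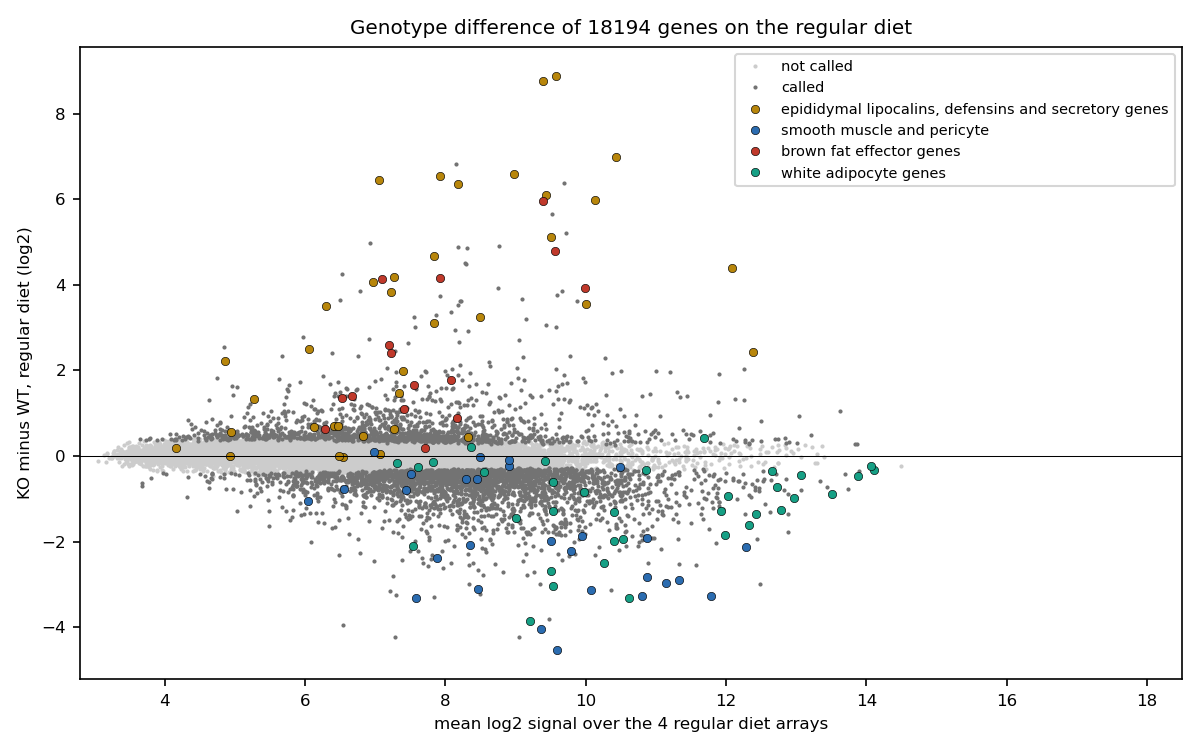
Mean log2 intensity over the 4 regular diet arrays (x axis) against the log2 difference, knockout minus wild type (y axis), for 18194 genes, with 4 gene lists coloured. The epididymal genes form the upper edge, up to 8.89 for Lcn5, the smooth muscle genes lie along the lower edge, down to -4.54 for Cnn1, and Ucp1 stands at 5.96.

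Among the 20 genes with the highest differences, 11 belonged to the epididymal list and 2, Ucp1 and Cidea, to the brown fat list, and 7 to no list used here. Those 7 were C4bp (6.83), a binding protein of complement C4, Epp13 (6.39), an epididymal protein, Slc38a5 (5.65), an amino acid transporter, Ap1s2 (5.21), an adaptor subunit for vesicle coats, Pate5 (4.97), Muc15 (4.89), a membrane mucin, and Cstdc2 (4.86), which carries a cystatin domain. Ap1s2 has 6 probe sets, and those other than the one used here differed by only 0.20 to 0.97. Among the 20 lowest, 7 belonged to the smooth muscle list and 3, Lep, Sncg and Npr3, to the white adipocyte list. Genes with immunoglobulin symbols were passed over in this ranking, among them Ighm (-3.12), which would lie within it. The rest included Abcg2 (-4.23), an efflux transporter, Pcp4 (-4.22), a calmodulin regulator, Sost (-3.94), a secreted inhibitor of Wnt signalling, Hpgd (-3.81), which inactivates prostaglandins, and Ptgr1 (-3.30), a prostaglandin reductase. Pdlim3 (-3.26), an actin-associated LIM protein, Mfsd2a (-3.24), a lysolipid transporter, Mt2 (-3.00), a metallothionein that binds zinc, and Cryab (-3.00), a small heat shock protein, closed the set. High fat means in wild type and knockout were 7.24 and 7.16 for Abcg2, 5.06 and 5.27 for Pcp4, 4.42 and 4.53 for Sost and 6.54 and 6.54 for Ptgr1. For these genes only the wild-type regular diet arrays were high. For Cryab those means were 9.93 and 9.84, so only the knockout regular diet arrays were low.

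Genes that carry out the work of brown fat were higher in the knockout. Of 15 measured brown fat effector genes, 14 rose and 0 fell (0 also at an unadjusted p under 0.05), with a median difference of 1.78. Ucp1, the uncoupling protein that lets mitochondria turn fuel into heat, read 6.40 and 6.44 on the wild-type arrays and 12.44 and 12.32 on the knockout arrays. The groups lay far apart, and the difference was 5.96 (SE 0.106, 62.2-fold, limma adjusted p = 3.72e-25). Cidea, which coats lipid droplets in brown fat, read 7.27 and 7.06 in wild type and 12.06 and 11.86 in the knockout, 27.9-fold higher. Fabp3, a carrier of fatty acids in tissues that burn them, read 6.03 and 5.65 in wild type and 10.13 and 9.88 in the knockout, 17.9-fold higher. Both subunits of cytochrome oxidase that mark oxidative tissue rose, Cox7a1 from 4.97 and 5.06 to 9.36 and 8.98 and Cox8b from 8.06 and 8.00 to 12.10 and 11.80. Smaller increases came in Pank1 (2.40), which starts coenzyme A synthesis, and Elovl3 (1.10), a fatty acid elongase induced by cold. Dio2, which activates thyroid hormone, was the member not called, at 7.52 and 7.70 in wild type and 7.85 and 7.76 in the knockout, although another of its probe sets rose (0.49, limma adjusted p = 0.0281). Several of these genes are also expressed in skeletal muscle. On the knockout arrays the summed fast-fibre level was lower, as given above, while 10 of the 19 fast-fibre genes rose and 4 fell with a median of 0.407, and the part of muscle RNA in these increases was not tested. Summed over members, the brown list read 10.71 and 10.69 on the wild-type arrays and 14.20 and 14.02 on the knockout arrays.

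The regulators of brown and beige fat went both ways. Among 31 measured, 5 rose, 4 fell and the median was 0.03, which became -0.029 when arrays were centred. The increases were Ppara (1.77), the nuclear receptor for fatty acids, Pdk4 (1.44), which shifts mitochondria from glucose to fat, Ppargc1b (1.38), a coactivator of mitochondrial genes, Kcnk3 (0.46), a potassium channel, and Sirt3 (0.42), a mitochondrial deacetylase. Without knockout array a Kcnk3 and Sirt3 were not called (limma adjusted p = 0.0674 and 0.0971), nor was Sirt3 without wild-type array b (limma adjusted p = 0.0821) or Kcnk3 as the mean of its probe sets (0.19, limma adjusted p = 0.293). Ppara read 6.17 and 6.05 in wild type and 7.94 and 7.81 in the knockout. Cited1, a beige fat marker, went the other way, from 9.67 and 9.28 in wild type to 7.17 and 7.20 in the knockout. On the high fat arrays Cited1 read 5.22 and 5.29 in wild type and 5.82 and 5.91 in the knockout. Prdm16, the transcriptional switch of the brown lineage, read 5.62 and 5.62 in wild type and 5.89 and 5.86 in the knockout and was not called, although the mean of its probe sets rose by 0.28. Ppargc1a, the coactivator best known for driving Ucp1, read 6.29 and 6.08 and 6.32 and 6.37 and was not called either.

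**Figure D2:**
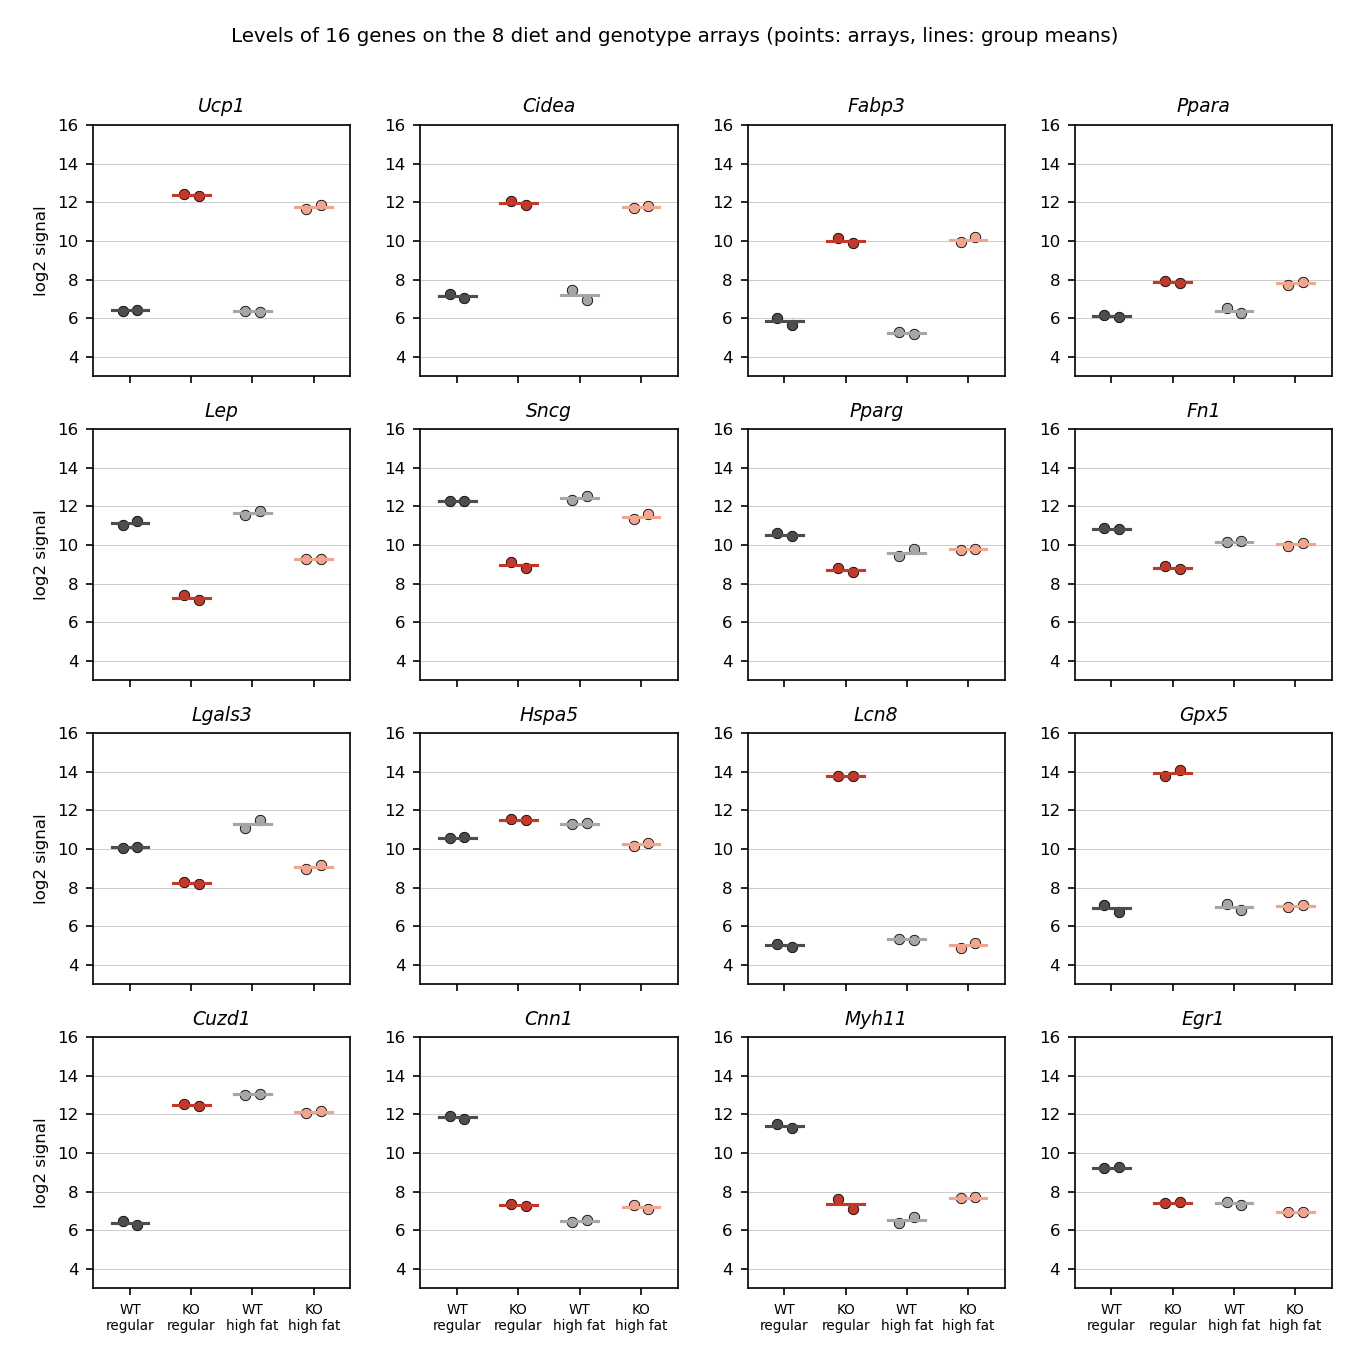
Log2 intensity (y axis of each panel) of 16 genes on the 8 diet and genotype arrays, each point being 1 array. Ucp1, Cidea, Fabp3 and Ppara are high on knockout arrays of both diets, Lcn8 and Gpx5 are high on the regular diet knockout arrays alone among these 8, and Cnn1 and Myh11 are high on the wild-type regular diet arrays.

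Genes of fatty acid oxidation rose in part. Of 30 measured genes, 16 were higher and 3 lower with a median of 0.33, and 25 were higher after repeated quantile normalization. The increases covered the core of the mitochondrial spiral. Acaa2, the thiolase of its last step, read 10.24 and 10.14 in wild type and 11.73 and 11.55 in the knockout. Hadhb and Hadha, the subunits of the trifunctional protein, rose by 1.41 and 1.06. Acadvl and Acadl, dehydrogenases for very long and long chains, rose by 1.38 and 0.97, and Slc25a20, the carnitine carrier of the inner membrane, by 1.21. The knockout arrays lay above the wild-type arrays for each of these genes, while 59.3% of all genes lacked overlap in either direction. Cpt1a, which controls entry of fatty acids into mitochondria in liver, was not called at 8.74 and 8.92 and 9.03 and 9.05, and rose by 0.45 after repeated quantile normalization. Hsd17b4, an enzyme of the peroxisomal pathway, fell by 0.63.

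The mitochondrial respiratory genes differed by complex. For complexes II to IV with cytochrome c, 13 of 30 rose, 0 fell and the median was 0.24, with Cox7a1 and Cox8b counted here too; without those 2, 11 of 28 rose with a median of 0.20. The count depended on scaling, at 7 after centring and 23 after repeated quantile normalization, and was 8, 7 and 8 without wild-type array a, wild-type array b and knockout array a. Uqcrc1, a core subunit of complex III, rose by 0.55 and Cyc1, cytochrome c1, by 0.49. Complex I had 5 of 34 members higher and 2 lower, and ATP synthase 0 of 16 higher and 3 lower, with medians of -0.04 and 0.00. The lower ATP synthase genes were 18.8% of their list, against 15.6% of all genes. After repeated quantile normalization complex I had 15 higher and 1 lower and ATP synthase 7 higher and 2 lower. Those 2 medians changed sign with the scaling, to 0.204 and 0.171 after repeated quantile normalization and -0.095 and -0.06 after centring. Ndufv1, which takes electrons from NADH, rose by 0.61, while Ndufs5 fell by 0.71 and the ATP synthase coupling factor Atp5j by 0.65. Mitochondrial ribosomal proteins, which translate the mitochondrial genome, ran lower, with 26 of 71 falling and 4 rising and a median of -0.21. Without wild-type array a 17 fell, without knockout array b 7, and after repeated quantile normalization 15. Mrps14, of the small subunit, fell by 0.86. In the tricarboxylic acid cycle 10 of 26 genes rose (18 after repeated quantile normalization), led by Sucla2 (0.98) and Suclg1 (0.93), the subunits of succinyl-CoA ligase, and 4 fell, among them Idh1 (-1.47) and Pcx (-1.07), which supply NADPH and oxaloacetate for fat synthesis. Coq8a, a kinase-like protein needed for coenzyme Q synthesis, rose by 1.83, although its list of 11 had 2 higher and 2 lower.

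Genes of the white fat cell fell. Of 35 measured, 28 were lower and 1 higher, with a median of -0.94. Lep, the satiety hormone leptin, read 11.01 and 11.24 on the wild-type arrays and 7.39 and 7.17 on the knockout arrays. The groups did not overlap, as for 59.3% of all genes. The knockout was 14.4-fold lower (difference -3.85, SE 0.114, limma adjusted p = 2.03e-20). Sncg, gamma-synuclein, which is abundant in white fat cells, read 12.30 and 12.25 in wild type and 9.13 and 8.80 in the knockout. Npr3, the clearance receptor for natriuretic peptides, read 11.02 and 11.10 and 8.06 and 7.99. Rarres2 (-2.68), the adipokine chemerin, Cav1 (-1.61), the coat protein of caveolae, and Cidec (-1.84), which enlarges lipid droplets, fell too. Adipoq fell by 0.89 and the adipokine Retn by 1.27. The member that rose was Gpd1 (0.42), which makes the glycerol backbone of triglyceride. Fabp4, the fatty acid carrier of fat cells, was not called, at 14.17 and 14.21 in wild type and 13.85 and 14.06 in the knockout, although the mean of its probe sets fell by 0.63. The summed level of the list was 17.52 and 17.57 in wild type and 16.77 and 16.72 in the knockout. Of the 29 called members, the knockout regular diet arrays stood apart from the other 6 diet and genotype arrays in 25 (86.2%). The share over all called genes was 61.4%. The epididymal sum ran the opposite way on the same arrays, and its part in these decreases was not tested.

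The transcription factors that make and keep fat cells shifted the same way. Of 27 measured, 12 fell and 2 rose with a median of -0.24. Pparg, the master regulator of adipogenesis, read 10.62 and 10.46 on the wild-type arrays and 8.83 and 8.60 on the knockout arrays. Cebpa, its partner in mature fat cells, read 12.39 and 12.48 and 11.45 and 11.29. Cebpd and Cebpb, which act before Pparg, fell by 2.28 and 1.07, and Foxo1, a target of insulin, by 1.24. Gata3, which restrains adipogenesis, also fell, by 2.02, from 6.98 and 7.20 to 5.01 and 5.14. On the high fat arrays Gata3 read 5.23 and 4.94 in wild type and 4.99 and 4.77 in the knockout. Srebf1, the regulator of lipid synthesis, was not called at 10.74 and 10.68 and 10.88 and 10.56, and rose after repeated quantile normalization (0.29, limma adjusted p = 0.00414). The increases were Egr2 (1.63) and the preadipocyte marker Dlk1 (0.39), which was not called without wild-type array b, knockout array a or knockout array b (limma adjusted p = 0.19, 0.0844 and 0.0913), with averaged probe sets (0.0565) or after centring (0.0621).

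Genes of lipid storage, lipid breakdown and insulin signalling were lower on balance. In fatty acid and triglyceride synthesis 17 of 31 genes fell and 2 rose (median -0.41), led by Acss2 (-1.87), which activates acetate, Lpin1 (-1.37), a phosphatidate phosphatase, and Me1 (-1.25), a source of NADPH. Dgat2, which completes triglyceride, fell by 0.97 and Acaca, which commits carbon to fatty acids, by 0.80. Fasn, fatty acid synthase, was not called at 14.15 and 14.16 in wild type and 13.93 and 13.90 in the knockout. It was called lower with robust eBayes, without dim genes, after centring and after repeated quantile normalization (limma adjusted p = 0.0443, 0.0143, 0.049 and 0.0296). In lipolysis and lipid droplet proteins 15 of 26 fell and 3 rose (median -0.61). For 15 of the 18 called members (83.3%) the knockout regular diet arrays stood apart from the other 6, against 61.4% of all called genes. Lipe, hormone-sensitive lipase, read 12.51 and 12.48 in wild type and 11.68 and 11.42 in the knockout, and Pnpla2, the lipase of the first step, read 13.07 and 13.11 and 12.47 and 12.28. Abhd5, the activator of that lipase, fell by 1.93. Plin5, the droplet coat of oxidative tissue, rose by 1.27, next to Cidea. For insulin signalling and glucose transport 16 of 30 fell and 2 rose (median -0.40). Slc2a4, the insulin-responsive glucose carrier, read 10.38 and 10.41 in wild type and 9.55 and 9.56 in the knockout. Pik3r1 fell by 1.00 and Akt2 by 0.60, both links between the receptor and that carrier, while the receptor Insr was not called at 8.02 and 7.96 and 7.63 and 7.77 (called lower after centring, limma adjusted p = 0.0242, and without dim genes, 0.0441) and Igf1r rose by 0.84. Cholesterol synthesis had 7 of 21 lower and 2 higher (median -0.19), with the sterol desaturase Sc5d at -1.95, and adrenergic and natriuretic peptide signalling had 5 of 11 lower and 0 higher (median -0.29), among which the phosphodiesterase Pde3b fell by 1.00. Glycolysis and glycogen split, with 9 of 28 higher and 8 lower. Several of these medians moved with the scaling. After repeated quantile normalization they were -0.16 for fatty acid and triglyceride synthesis, -0.375 for lipolysis and lipid droplets and -0.255 for insulin signalling. The lower counts of these lists were then 16, 16 and 14. Cholesterol synthesis then had 6 higher and 6 lower.

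Within the TGF-beta pathway, several ligands, latency proteins and receptors fell. Of 27 measured ligands, latency proteins and antagonists, 11 were lower and 3 higher (median -0.13). Tgfb1 read 8.20 and 8.21 on the wild-type arrays and 7.63 and 7.82 on the knockout arrays. Tgfb3 read 8.03 and 8.05 and 6.99 and 7.30. Tgfb2 was not called at 5.76 and 5.71 and 6.20 and 5.93. Inhbb, a subunit of activin B, fell by 1.13 and the activin binders Fst and Fstl3 by 1.21 and 0.98, while Inhba, the subunit of activin A, rose by 0.46. Inhba was not called without wild-type array b or knockout array b (limma adjusted p = 0.0975 and 0.164). Averaging all probe sets of a gene left 7 ligand genes lower and took away the calls of Tgfb1 (-0.18) and of the receptor Tgfbr2 (-0.16). Without knockout array a Tgfb1 had a limma adjusted p of 0.0537. Among 14 receptors and coreceptors 5 fell and 1 rose (median -0.13). Tgfbr3, betaglycan, which presents the ligand, read 11.25 and 11.32 in wild type and 10.10 and 9.70 in the knockout. Tgfbr2, which binds the ligand, read 9.49 and 9.47 and 9.00 and 8.93, and Tgfbr1, its signalling partner, was not called at 7.83 and 8.02 and 7.93 and 8.07. Of 8 Smads, Smad2 and Smad6 fell by 0.42 and 0.44 and 0 rose. Without knockout array b Smad6 differed by -0.25 and was not called (limma adjusted p = 0.332), and it was not called without either wild-type array (limma adjusted p = 0.0737 and 0.0896). Smad2 was not called without wild-type array a or knockout array a (limma adjusted p = 0.0881 and 0.158), nor as the mean of its probe sets (-0.18, limma adjusted p = 0.152). Smad4 read 8.82 and 8.63 and 8.56 and 8.41 and was not called, although the mean of its probe sets fell by 0.45.

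Genes that TGF-beta is known to induce were lower in the knockout in most cases. Of 33 measured, 23 fell and 2 rose, with a median of -0.56. Fn1, fibronectin, read 10.87 and 10.82 on the wild-type arrays and 8.91 and 8.74 on the knockout arrays. Thbs1, thrombospondin, an activator of latent TGF-beta, read 8.77 and 8.79 and 5.67 and 5.59. Ccn2, connective tissue growth factor, read 9.66 and 9.83 and 8.32 and 8.22. The arrays of the genotypes did not overlap for any of these 3 genes, as for 59.3% of all genes. Pmepa1, a feedback inhibitor of the pathway, fell by 1.17 and Id3, a target shared with the BMP branch, by 1.72. Tgif1, a corepressor of Smads, rose by 0.92 and Ltbp2 by 0.47, the latter not called without wild-type array a or knockout array a (limma adjusted p = 0.0682 and 0.0653). The largest differences of the list, Cnn1 (-4.54), Tagln (-3.28) and Thbs1 (-3.15), include smooth muscle genes; without the 3 members shared with the smooth muscle list, 20 of 30 fell and 2 rose with a median of -0.47. The summed level of the list was 15.23 and 15.27 in wild type and 13.67 and 13.54 in the knockout, against 14.12 and 14.21 on the wild-type high fat arrays. The Smad motif CAGACA, sought on both strands in the 250 bases before the start in RefSeq promoters of GRCm38.p6, was present in 5 of 22 genes of the list (22.7%), in 3 of 14 that fell (21.4%) and in 2482 of 14453 measured genes (17.2%).

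Matrix genes fell unevenly. Of 20 basement membrane genes, 10 were lower and 3 higher (median -0.42). The decreases included Col4a1 (-2.00) and Col4a2 (-1.53), the chains of the common type IV collagen, Nid1 (-1.94), which links collagen to laminin, and Sparc (-1.31), which binds collagen. Col4a1 read 11.78 and 11.75 in wild type and 9.84 and 9.68 in the knockout. Col4a4, a chain of another type IV network, rose by 0.86. Of 18 interstitial collagens 7 fell and 1 rose (median -0.13), with Col3a1 at -1.29, Col5a2 at -1.21 and Col6a1 at -0.87. The chains of type I collagen were not called, Col1a1 at 7.97 and 8.08 in wild type and 8.06 and 8.00 in the knockout and Col1a2 at 11.09 and 10.92 and 10.99 and 10.81. The second probe set of Col1a1 rose (0.38, limma adjusted p = 0.0265), and so did Col1a2 after repeated quantile normalization (0.19, limma adjusted p = 0.0486). Other matrix glycoproteins and cross-linking enzymes had 17 of 36 lower and 2 higher (median -0.35), among them Efemp1 (-2.49), Thbs2 (-1.63) and the collagen chaperone Serpinh1 (-1.74). For 18 of the 19 called members (94.7%) the knockout regular diet arrays stood apart from the other 6, against 61.4% of all called genes. Of 29 proteases and inhibitors 8 fell and 2 rose, with the largest decreases in Adamts1 (-2.45) and the inhibitor Timp4 (-1.88). Fibroblast and precursor markers had 11 of 26 lower and 1 higher (median -0.26), with Dpt at -1.27 and Pdgfrb at -0.79, whereas Pdgfra, the defining receptor of precursors, was not called at 7.48 and 7.47 and 7.92 and 7.67. Against the direction of its list, it was called higher with robust eBayes, without dim genes and after repeated quantile normalization (limma adjusted p = 0.0485, 0.0345 and 0.0187), and without knockout array b (0.44, limma adjusted p = 0.0229).

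The contractile genes of smooth muscle fell, and their median was the lowest of the lists described here. Of 28 measured, 23 fell and 0 rose (0 also at an unadjusted p under 0.05), with a median of -2.02. Cnn1, calponin, read 11.93 and 11.78 on the wild-type arrays and 7.35 and 7.28 on the knockout arrays, 23.3-fold lower. Myh11, smooth muscle myosin, read 11.48 and 11.28 and 7.60 and 7.09, 16.4-fold lower. Tagln, transgelin, read 12.50 and 12.39 and 9.21 and 9.12, and Acta2, smooth muscle actin, read 13.24 and 13.46 and 11.23 and 11.23. On the high fat arrays Cnn1 read 6.42 and 6.51 in wild type and 7.33 and 7.08 in the knockout, and Myh11 read 6.40 and 6.69 and 7.67 and 7.72. The wild-type regular diet arrays thus stood apart from the other 6. They did so for 22 of the 23 called members (95.7%), against 48.0% of all called genes. All 4 knockout arrays lay below all 4 wild-type arrays for 3 members (13.0%), against 25.7% of all called genes in either direction. Myocd, the coactivator that switches on this program, fell by 1.05, and its DNA-binding partner Srf was not called at 9.01 and 8.90 and 8.88 and 8.84, although the mean of its probe sets fell by 0.51. Cspg4, a marker of pericytes, fell by 0.53.

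Srf binds the CArG box, a run of A and T between CC and GG, which was sought on both strands. No motif was masked for overlap with another. A match lay within 250 bases before the start in 3 of 23 smooth muscle genes with an entry (13.0%), in 2 of 18 that fell (11.1%) and in 207 of 14453 measured genes (1.43%). The match in Myl9, the light chain of smooth muscle myosin, which fell by 2.96, is shown with the box in capitals. It lies at chr2:156775283-156775332 on the plus strand of GRCm38.p6 (RefSeq).
Myl9: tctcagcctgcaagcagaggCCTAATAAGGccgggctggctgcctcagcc

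Fast skeletal muscle genes went in both directions, with 10 of 19 higher and 4 lower. Tnnc2, fast troponin C, fell from 9.99 and 9.95 to 7.64 and 7.27 and Acta1, skeletal actin, from 11.02 and 10.76 to 8.32 and 8.58. Myh4, fast myosin, rose from 3.65 and 3.50 to 6.12 and 6.12, levels below the array medians. On high fat diet 19 of 19 of these genes were higher in the knockout, with Tnnc2 at 5.35 and 5.60 in wild type and 11.96 and 12.12 in the knockout. Slow and cardiac type muscle had 2 of 16 higher and 2 lower on the regular diet, other muscle structure genes 7 of 25 higher and 5 lower, and myogenic regulators 1 of 14 higher and 0 lower. The 7 other muscle structure genes became 4 without wild-type array b and 3 without knockout array b.

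Markers of macrophages fell. Of 39 measured, 21 were lower and 3 higher, with a median of -0.44. Lgals3, galectin-3, read 10.06 and 10.10 on the wild-type arrays and 8.28 and 8.21 on the knockout arrays. Cd68, a lysosomal glycoprotein used to mark macrophages, read 6.87 and 6.79 and 5.62 and 5.37. Lyz2, lysozyme, fell by 1.65, and C1qb, of complement C1q, fell by 1.81. The markers of resident cells Mrc1 and Cd163 fell by 1.16 and 1.32. For the called members of this list all 4 knockout arrays lay beyond all 4 wild-type arrays in 18 of 24. Over all called genes the share was 25.7%, counting either direction. Adgre1, the F4/80 antigen, was not called, at 7.22 and 7.32 in wild type and 7.08 and 7.01 in the knockout, and Gpnmb, a marker of lipid-laden macrophages, rose by 0.67, or by 0.26 and uncalled as the mean of its probe sets. The summed level of the list was 14.37 and 14.35 in wild type and 13.57 and 13.44 in the knockout.

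Lysosomal genes followed, with 18 of 33 lower and 2 higher (median -0.32), or 11 lower and 5 higher after repeated quantile normalization (median -0.103). Ctss, a cathepsin of immune cells, fell by 1.15, and Ctsc fell by 1.70. Atp6v0d1, of the proton pump, fell by 0.85, and Ctsh rose by 1.32. Cytokines and acute phase genes had 10 of 41 lower and 1, Lcn2, higher. Orm1 (-2.62) and Serpina3n (-2.18), acute phase proteins that fat cells also make, were among those lower. The inflammatory cytokine Tnf was not called at 6.18 and 6.49 and 6.40 and 6.40, nor was Il6 at 4.76 and 4.52 and 4.80 and 4.58. Among 39 chemokines and receptors 6 fell (15.4%, against 15.6% of all genes), with Ccl6 at -2.51 and Ccl9 at -2.18. Another 5 rose (12.8%, against 8.4%). For T and NK cells 1 of 27, Gata3, fell and 0 rose. For MHC class II and dendritic cells 0 of 15 were called by limma (0 also at an unadjusted p under 0.05), with 3 higher after repeated quantile normalization. Among 20 B and plasma cell genes 3 fell (15.0%) and 1 rose (5.0%), near the shares over all genes. Those that fell included the immunoglobulin gene Ighm, from 11.98 and 11.88 to 8.96 and 8.66. Ighm has 11 probe sets, whose mean fell by 0.55. Summed, the B and plasma cell list read 13.87 and 13.86 in wild type and 12.84 and 12.72 in the knockout. On the high fat arrays that sum was 12.86 and 12.84 in wild type and 13.06 and 13.12 in the knockout. Interferon response genes had 4 of 37 higher (10.8%) and 5 lower (13.5%), also near the shares over all genes. Proliferation genes had 2 of 40 called each way.

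Chaperone genes of the endoplasmic reticulum rose, while the transcript of Xbp1, a regulator of such genes, fell. The activity of the Xbp1 protein was not measured. Of 36 genes of the unfolded protein response, 17 were higher and 6 lower (2 after repeated quantile normalization), with a median of 0.27. These genes help secreted proteins to fold, and Xbp1 and other factors are known to act on them through a promoter element called ERSE. Hspa5, the chaperone BiP, read 10.58 and 10.60 on the wild-type arrays and 11.55 and 11.50 on the knockout arrays. Pdia6, a disulphide isomerase, read 8.85 and 8.79 and 10.66 and 10.32. Manf, a secreted survival factor, read 7.79 and 7.75 and 9.55 and 9.35, and Derl3, which helps export misfolded protein, read 7.30 and 7.45 and 9.59 and 9.06. Both knockout arrays were above both wild-type arrays for each of the 4, and 59.3% of all genes lacked overlap in either direction. Creld2 rose by 1.42, Calr, calreticulin, by 0.97 and Hsp90b1, the chaperone GRP94, by 0.93. Xbp1 read 13.10 and 13.12 in wild type and 12.08 and 11.91 in the knockout. Of the 23 called members, the knockout regular diet arrays stood apart from the other 6 in 18 (78.3%), against 61.4% of all called genes. The epididymal sum was also highest on those arrays, and its part in this result was not tested.

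The element, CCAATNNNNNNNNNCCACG on either strand, was found in the 250 bases before the start of 10 of 32 genes of this list with a promoter entry (31.2%). Among members that rose it was in 9 of 15 (60.0%), among those that fell in 0 of 5, and among all 14453 measured genes in 19 (0.131%). A match is a description of the letters and not a site of binding. The list was drawn up around known targets, so its share is no independent evidence. Matches of 6 members that rose are shown because they carry this shared feature, from RefSeq promoters of GRCm38.p6, each 5' to 3' on its gene's strand with the element in capitals. Hspa5 is at chr2:34772005-34772063 (plus), Calr at chr8:84847055-84847113 (minus), Hsp90b1 at chr10:86705513-86705676 (minus, with 2 matches), Creld2 at chr15:88819500-88819558 (plus), Derl3 at chr10:75893222-75893280 (plus) and Pdia6 at chr12:17266471-17266529 (plus).
Hspa5: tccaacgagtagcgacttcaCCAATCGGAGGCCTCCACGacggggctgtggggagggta
Calr: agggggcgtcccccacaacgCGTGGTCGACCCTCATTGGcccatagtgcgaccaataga
Hsp90b1: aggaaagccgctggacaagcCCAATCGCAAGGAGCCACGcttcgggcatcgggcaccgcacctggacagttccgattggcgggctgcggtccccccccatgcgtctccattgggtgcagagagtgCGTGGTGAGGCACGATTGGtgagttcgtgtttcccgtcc
Creld2: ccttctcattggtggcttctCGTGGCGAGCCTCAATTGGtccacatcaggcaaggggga
Derl3: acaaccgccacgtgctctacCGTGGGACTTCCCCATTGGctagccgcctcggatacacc
Pdia6: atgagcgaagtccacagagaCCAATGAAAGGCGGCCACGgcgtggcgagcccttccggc
In Hspa5 and Pdia6 the element reads in the gene's direction, in Calr, Creld2 and Derl3 it reads on the opposite strand, and Hsp90b1 has both.

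The largest increases were in genes of the epididymis, the duct that stores sperm and, in males, adjoins a fat depot. Of 37 measured, 32 rose and 0 fell (0 also at an unadjusted p under 0.05), with a median of 3.12. Without genes whose mean over the 12 arrays was under the 40th percentile, 15 rose. Lcn5, a lipocalin that binds retinoids, read 5.05 and 5.22 on the wild-type arrays and 14.01 and 14.04 on the knockout arrays, 474-fold higher. Lcn8, its neighbour, read 5.07 and 4.95 and 13.77 and 13.76. Gpx5, the glutathione peroxidase of epididymal fluid, read 7.10 and 6.76 and 13.77 and 14.09. Wild-type values of Lcn5 and Lcn8 lay below the array medians, so these folds rest on wild-type readings that may be background. Cst11 and Cst12, cystatins that inhibit proteases, rose by 6.46 and 6.54, Adam7, a membrane protein transferred to sperm, by 6.59, and Rnase10 by 5.12. Lcn2, a lipocalin that binds bacterial siderophores and is also an acute phase protein, rose by 5.98.

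The pattern across the other diet split these genes. Gpx5 read 7.15 and 6.85 on the wild-type and 7.00 and 7.09 on the knockout high fat arrays, and Lcn8 read 5.36 and 5.28 and 4.90 and 5.16, so both were high on the knockout regular diet arrays alone among the 8. Cuzd1, a protein with CUB and zona pellucida-like domains, read 6.48 and 6.28 in wild type and 12.56 and 12.43 in the knockout on the regular diet, but 12.98 and 13.08 and 12.07 and 12.16 on the high fat diet. Adam7 read 10.56 and 10.84 in wild type and 9.06 and 9.47 in the knockout on the high fat diet, and Spint4, a protease inhibitor, read 9.72 and 10.03 and 6.08 and 6.21. The wild-type regular diet arrays were the lowest for these 3 genes, with the knockout high fat arrays also low for Spint4. On the high fat arrays the summed level of the list was 14.53 and 14.74 in wild type and 13.61 and 13.77 in the knockout. All 4 knockout arrays lay beyond all 4 wild-type arrays for 1 of the 32 called members (3.12%), against 25.7% of all called genes.

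Called and uncalled members of these families lay in the same stretches of the genome, taking only measured genes. Lcn8 (chr2:25653118-25656217) and Lcn5 (chr2:25657932-25662230) are adjacent on GRCm38.p6. The next measured lipocalin genes are Lcn3 (chr2:25765533-25768098) and Lcn11, named here for their place and after their values were seen. These 2 differed by 0.19 and 0.20 and were not called, and Lcn9, beyond them, rose by 6.36. In the cystatin cluster of the same chromosome, Cst11 and Cst12 flank Cstdc1, which differed by -0.25 and was not called, and Cst3, the cystatin made by most cells, fell by 0.59.

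Other epithelial and germ cell genes were higher as well. Among 35 other epithelial genes 18 rose and 1, Krt19, fell (median 0.43). Krt18 and Krt8, the keratins of simple epithelia, rose by 2.10 and 1.12, Cldn3, of tight junctions, by 1.90 and Prom1 by 3.63. Cdh1, E-cadherin, read 7.06 and 7.16 on the wild-type arrays and 7.74 and 8.33 on the knockout arrays and rose, while Epcam was not called at 7.84 and 8.70 and 8.55 and 8.84. Epcam was called without wild-type array b (0.85), not without wild-type array a (-0.0088), and as the mean of its probe sets (1.33). Of 23 testis and sperm genes 10 rose and 1 fell (median 0.31). Without dim genes 4 rose. Prm1, a protamine that packs sperm DNA, read 6.58 and 6.71 in wild type and 7.76 and 7.69 in the knockout, against 9.65 and 9.66 and 7.00 and 7.27 on the high fat diet, so its wild-type high fat arrays were the highest. Its partner Prm2 rose by 1.35 and Ldhc, the lactate dehydrogenase of sperm, by 0.76. The member that fell was Sycp3 (-1.36), of meiotic chromosomes. Glutathione and peroxide genes went both ways, with 11 of 44 higher and 14 lower. Gpx3 rose by 1.30 beside Gpx5, while Gpx1, the enzyme of most cells, fell by 1.35 and Sod3, the extracellular superoxide dismutase, fell by 1.52. Gpx3 is also made by epididymal cells, whose markers rose on the same arrays, and their part in it was not tested.

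Genes of the immediate early response fell. Of 31 measured, 18 were lower and 1, Egr2, higher, with a median of -0.63. Egr1 read 9.20 and 9.28 on the wild-type arrays and 7.41 and 7.45 on the knockout arrays, and Dusp1, a phosphatase that ends kinase signalling, read 9.95 and 10.11 and 8.34 and 8.18. Fos fell by 1.27 and Zfp36, which destabilizes inflammatory messages, by 1.57. Nr4a1 was not called, at 9.38 and 9.27 and 9.11 and 9.17. These genes are known to respond fast to many stimuli. For 16 of the 19 called members (84.2%) the wild-type regular diet arrays stood apart from the other 6, against 48.0% of all called genes. Heat shock genes had 10 of 17 lower and 0 higher (median -0.63), headed by the small heat shock proteins of muscle Cryab (-3.00), Hspb7 (-2.72) and Hspb8 (-2.30). Hspa8, the constitutive chaperone, fell by 0.57, and the inducible Hspa1a was not called at 6.67 and 6.70 and 7.02 and 6.97, although it was called higher when probe sets were averaged and without dim genes (limma adjusted p = 0.0217 and 0.0465). Of 19 clock genes 8 fell and 1 rose (median -0.20). Dbp and Nr1d1, outputs of the clock that cycle over the day, fell by 0.73 and 0.61, whereas the core factor Arntl was not called at 7.17 and 6.92 and 7.12 and 7.28.

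Vessel and lining cell markers were lower too. Of 25 endothelial genes 15 fell and 0 rose (median -0.41). Lyve1, of lymphatic vessels and some macrophages, fell by 1.93, Cldn5, of tight junctions, by 1.25 and Vwf by 1.07, while Pecam1, the usual marker, was not called at 7.87 and 7.95 in wild type and 7.73 and 7.59 in the knockout, but lower after centring (limma adjusted p = 0.045). Summed, the list read 14.92 and 14.91 in wild type and 14.51 and 14.58 in the knockout. Of 16 mesothelial genes 8 fell and 3 rose, with Upk3b at -2.10 and Msln at -1.56. Without wild-type array a 5 mesothelial genes fell. Imprinted growth genes had 6 of 18 lower and 2 higher. Nnat fell by 2.49 and Mest, a marker of fat cell enlargement, by 1.46. Among creatine and calcium cycling genes 4 of 15 rose and 4 fell, with Alpl, tissue-nonspecific phosphatase, at 1.63 and Ckb, brain-type creatine kinase, at -1.12. Among hepatocyte plasma proteins 2 of 19 were higher and 4 lower. Called counts were 2 or fewer each way for neuron and glia genes (1 of 16 each way), serotonin and catecholamine genes (0 of 17 higher, 2 lower) and erythroid genes (0 of 4 higher, 1 lower). Regulators of mitochondrial biogenesis had 1 of 19 higher (5.26%) and 3 lower (15.8%), against 8.4% and 15.6% over all genes.

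**Figure D3:**
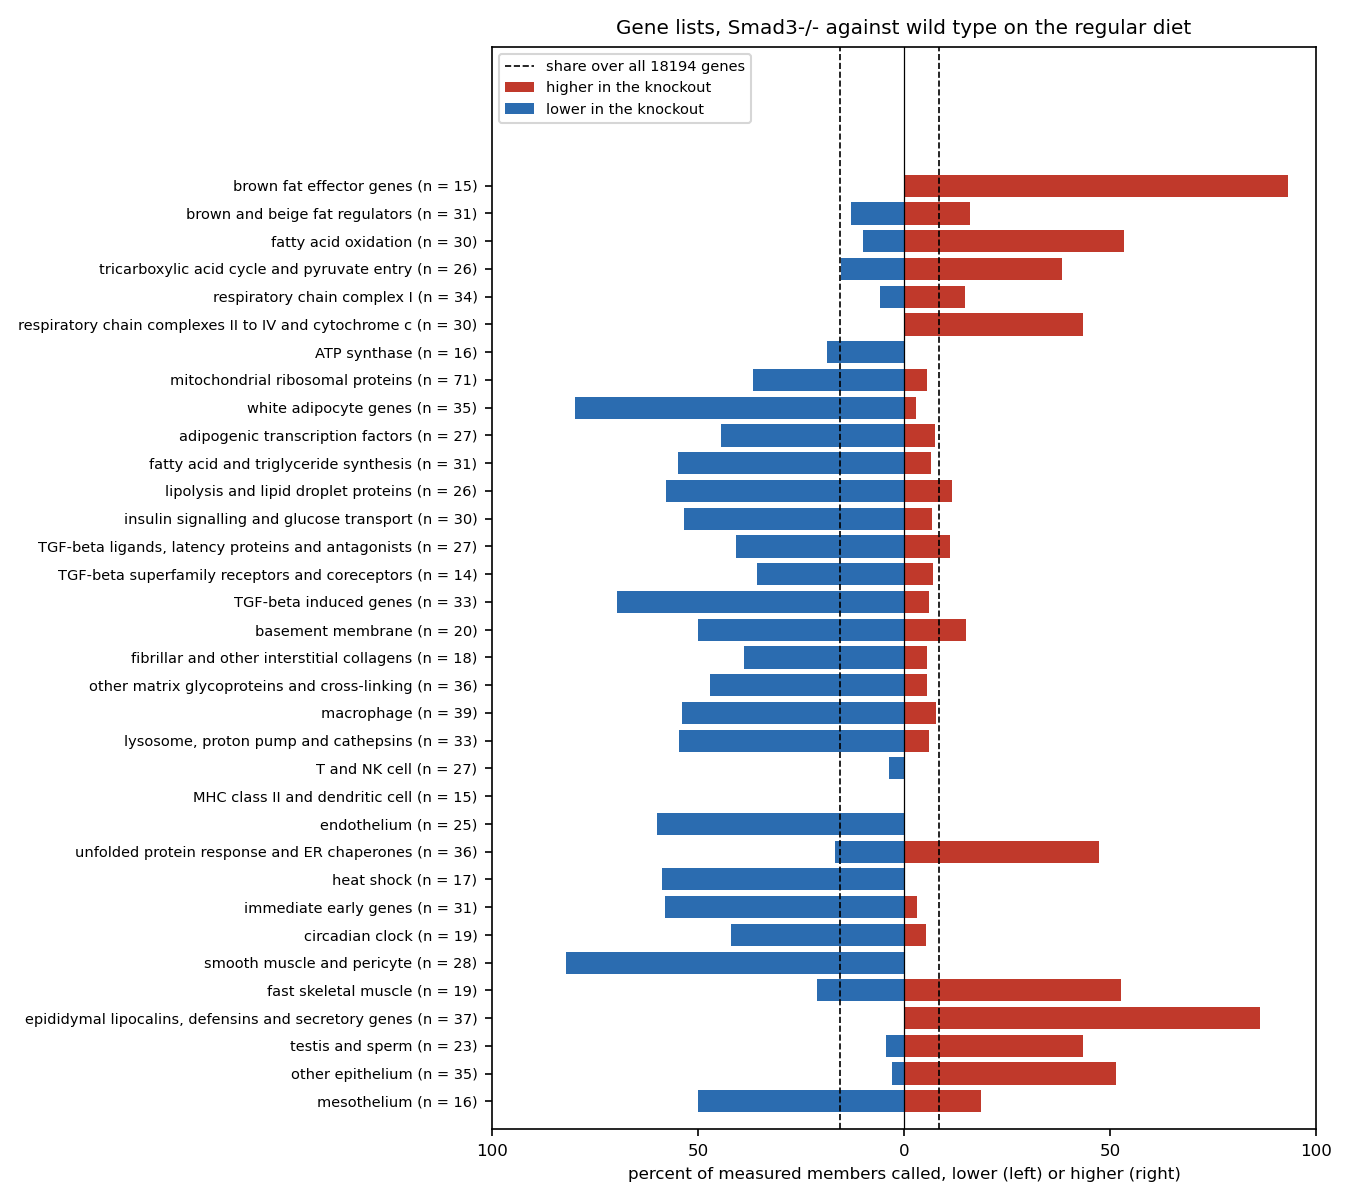
Percent of the measured members of 34 gene lists that fell (left) or rose (right) in the knockout on the regular diet, with dashed lines at the shares over all 18194 genes, 15.6% lower and 8.4% higher. Brown fat effector and epididymal lists lie far to the higher side, and smooth muscle, white adipocyte and TGF-beta induced lists far to the lower side.

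**Figure D4:**
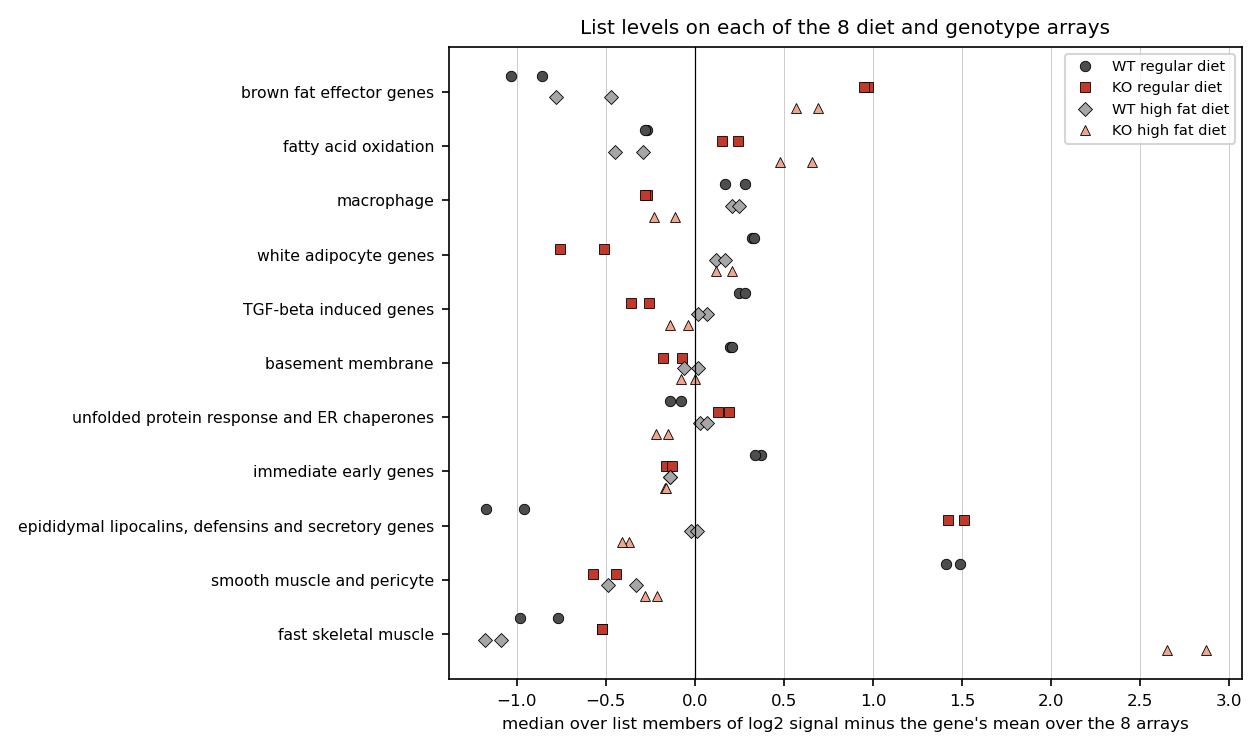
Median deviation, in log2 units, of the members of 11 lists from each gene's mean over the 8 diet and genotype arrays, with 1 point an array. The brown fat list is high on all 4 knockout arrays, the smooth muscle list is high on the 2 wild-type regular diet arrays, and the fast skeletal muscle list is high on the 2 knockout high fat arrays.

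The arrays on the high fat diet share no sample with this comparison and gave a partly different set of genes. There 1963 genes (10.8%) were called between the genotypes, 4.74% of all genes higher and 6.05% lower. Of the 1528 genes higher on the regular diet, 149 were also higher on the high fat diet, which is 9.75% of the first list and 17.3% of the second, and 340 (22.3% of the first) were lower there. Of the 2833 lower genes, 409 were lower on both diets (14.4% and 37.2%) and 258 (9.11% of the first) were higher. Over all genes the differences on the 2 diets correlated at r = -0.00913, a description across genes, which are not independent replicates. The test of the difference between the diets called 3413 genes (18.8%).

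Brown fat effector genes were among those that moved on both diets, with 11 of 15 higher on the high fat diet and 1 lower. Ucp1 read 6.37 and 6.33 in wild type and 11.67 and 11.86 in the knockout there, a difference of 5.41, and the difference was larger on the regular diet by 0.54 (limma adjusted p = 0.00941). Cidea differed by 4.80 and 4.56 on regular and high fat diet, and Cox8b by 3.92 and 3.76. The interaction of Cidea had a limma adjusted p of 0.439 and that of Cox8b 0.584. Fabp3 differed by 4.16 and 4.79, less on the regular diet (limma adjusted p = 0.0169). The interaction of Ucp1 was not called without knockout high fat array a (limma adjusted p = 0.0745). That of Fabp3 was not called in 4 of the 8 fits that left out 1 array, with limma adjusted p from 0.0572 without wild-type high fat array b to 0.154 without wild-type regular diet array a, and between them 0.115 and 0.128 without the b arrays of the knockout on regular and high fat diet. Lep fell on both diets, by 3.85 and 2.34, more on the regular diet (limma adjusted p = 2.71e-08). Lgals3 differed by -1.83 and -2.21 (interaction, limma adjusted p = 0.125). The interaction was called for Lgals3 after repeated quantile normalization and without wild-type high fat array a (limma adjusted p = 0.00824 and 0.00745), for Cox8b after repeated quantile normalization (0.0423) and for Cidea without wild-type high fat array b (0.0334). Macrophage genes had 19 of 39 lower on the high fat diet and 0 higher. Fatty acid oxidation had 24 of 30 higher there and complex I 30 of 34. The summed fast muscle level was 14.90 and 15.00 on the knockout high fat arrays and 11.03 and 11.06 on the wild-type ones. The part of muscle RNA in those counts and in the Fabp3 difference on that diet was not tested.

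Other lists went different ways on the diets. White adipocyte genes had 7 of 35 higher and 11 lower on the high fat diet, against 1 and 28 on the regular diet. Adipoq differed by -0.89 and 0.16 on regular and high fat diet, and these differed from each other (interaction -1.05, limma adjusted p = 1.95e-06). Fn1 differed by -2.02 and -0.13 (interaction -1.89, limma adjusted p = 3.04e-11), and TGF-beta induced genes had 4 of 33 higher and 8 lower on the high fat diet. Hspa5 had opposite signs, 0.94 and -1.08 (interaction 2.02, limma adjusted p = 4.3e-12), and the unfolded protein list had 1 of 36 higher and 13 lower there. Cnn1 differed by -4.54 and 0.74 and Lcn5 by 8.89 and -3.72, both past the interaction test (limma adjusted p = 4.2e-19 and 4.08e-26). In the wild-type arrays Cnn1 moved from 11.93 and 11.78 on the regular diet to 6.42 and 6.51 on the high fat diet.

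**Figure D5:**
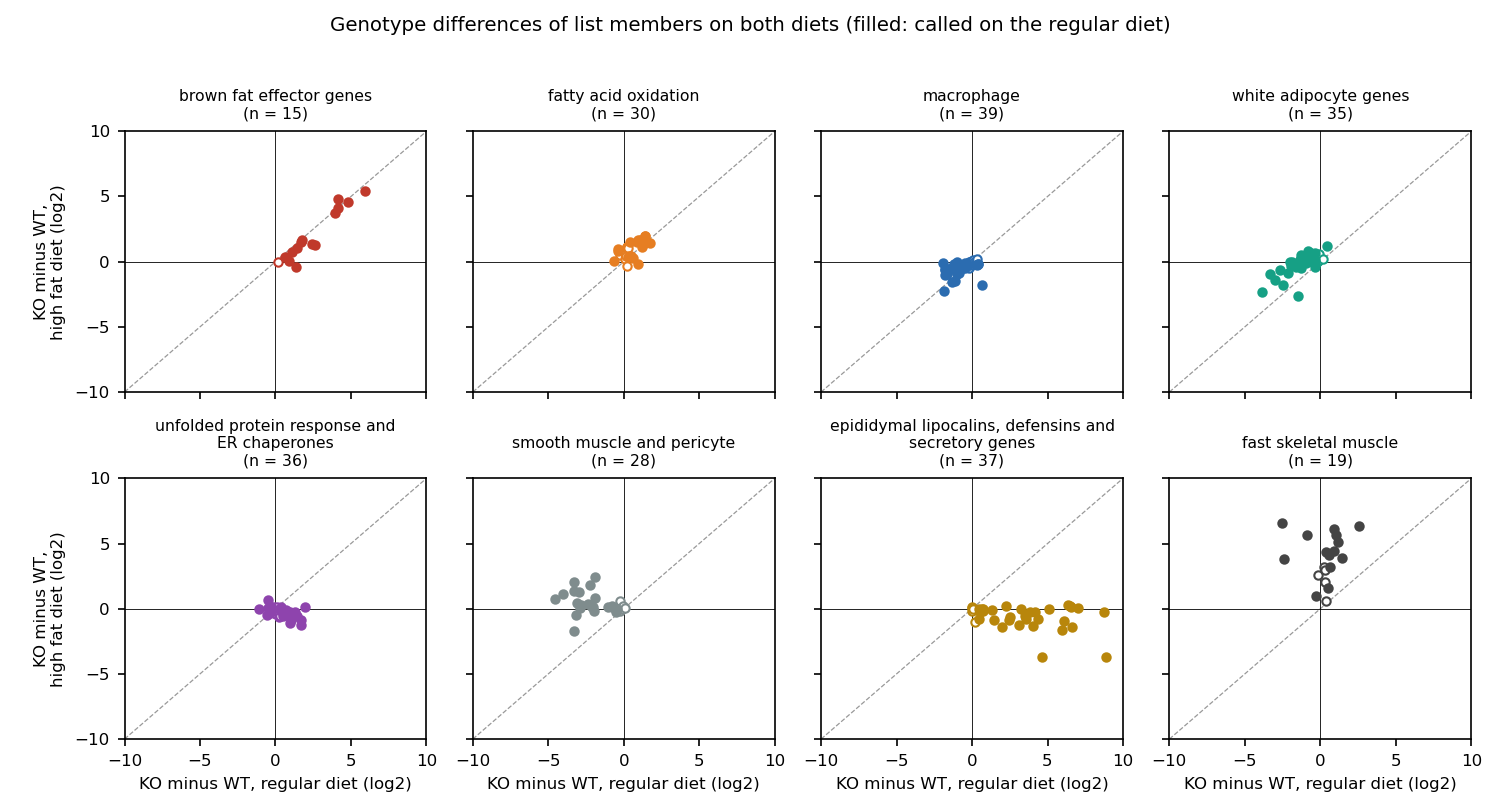
Log2 difference, knockout minus wild type, on the regular diet (x axis) against the high fat diet (y axis) for the members of 8 gene lists, with filled points for genes called on the regular diet. Of the brown fat effector genes, Ucp1, Cidea, Fabp3, Cox7a1 and Cox8b lie near the diagonal. In that list 14 of 15 were called higher on the regular diet, and 11 higher and 1 lower on the high fat diet. Smooth muscle genes spread along the negative x axis, and epididymal genes along the positive x axis.

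The antibody experiment was made in other mice and its arrays had medians of 6.03 to 6.04. Apart from the sex-linked genes above, its levels are thus not set beside these. Antibody minus IgG called 4423 genes (24.3%). Of the genes higher in the regular diet knockout, 309 were higher with the antibody (20.2% of the first list, 14.5% of the second) and 194 lower. Of those lower, 604 were lower with the antibody (21.3% and 26.4%) and 436 higher. Ucp1 differed by 6.93, Cidea by 5.29 and Fabp3 by 5.79 between antibody and IgG, all called in the same direction as in the knockout. Lep differed by -1.89 and Lgals3 by -1.99, likewise called. The fast muscle gene Myh4 was also higher with the antibody, by 7.03. Several brown fat list genes are expressed in skeletal muscle too, and the part of muscle RNA in the antibody differences was not tested. Other genes named above were called the opposite way, with Cnn1 at 0.94, Tagln at 0.72, Thbs1 at 0.54, Nnat at 0.87, Adipoq at 0.34, Hspa5 at -0.62 and Lcn2 at -0.50. Called in the same direction in all 3 comparisons were 127 higher and 226 lower genes.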

How the data were processed

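RNA from 12 mouse samples (6 groups of 2, arrays a and b) was hybridised to Affymetrix expression arrays. The deposited values are log2 intensities per probe set, and the submitters' processing notes name RMA and Partek without versions. RMA subtracts background and is meant to equalise array distributions, so a global shift in RNA amount could be hidden. Values near background are compressed. The deposited distributions were not equal. Their SD over probe sets was 1.73 and 1.74 on the wild-type regular diet arrays and 1.67 and 1.64 on the knockout ones. Medians were 6.33 and 6.32 against 6.38 and 6.39. Of 45101 probe sets, 34958 name 1 gene, 932 several and 9211 none in the platform annotation; the last 2 kinds were left out. The brightest probe set stood for each of 18194 genes, which was done for 9012 genes with several. For 18032 genes an identifier matched the GRCm38.p6 gene table.

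Group means over the 12 arrays were fitted with limma 3.58.1 in R 4.3.3 (lmFit, eBayes with an intensity trend, residual df 6, prior df 20.4), with two-sided tests and Benjamini-Hochberg adjustment over all genes at 0.05. The number of arrays limits the precision. The pair of wild-type arrays correlated at 0.994 and the knockout pair at 0.992 over genes. On simulated data for this comparison, run on 18194 genes, 55.2% of 67 genes changed by 0.5 log2 units were called, 100% of those changed by 1 or 2 units, and 5 of 17994 unchanged genes.

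The comparison, its members and the gene lists were chosen with earlier results of these data known, so lists describe and are no independent evidence. The genes named are Smad3, the 20 highest and 20 lowest called genes without overlap between groups (passing over clone-like, immunoglobulin and T cell receptor symbols), and up to 8 members per list, taken as the largest called differences, the brightest and the most direct in role. Alternatives were eBayes without a trend, robust eBayes, a filter on dim genes (40th percentile), averaging the probe sets that name a gene, testing each of them separately, 2 other scalings (arrays centred, repeated quantile normalization), fits on 4 or 8 arrays, array weights, a replicate block, a 1.5-fold minimum and leaving out each array.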

Additional observations from a re-analysis of the deposited data

Results flagged for a closer look

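The genotype difference on the regular diet was set against that on the high fat diet by the interaction term of the limma fit, and the genes below passed it at an adjusted p of 0.05. Values are the regular diet difference minus the high fat difference in log2 units. Among contractile and muscle genes the value was -5.28 for Cnn1, -4.61 for Tagln, -9.08 for Tnnc2 and -3.81 for Myh4. For the matrix and early response genes it was -1.91 for Thbs1, -1.89 for Fn1, -1.55 for Col4a1 and -1.38 for Egr1. White fat genes gave -1.51 for Lep, -1.63 for Npr3, -1.05 for Adipoq and -0.857 for Fasn, with -0.719 for the imprinted Nnat and -0.697 for the macrophage gene Lyz2. Fabp3 gave -0.631 and Ucp1 0.543 in the brown fat list. Fabp3 was also not called, by limma, with averaged probe sets or repeated quantile normalization (adjusted p = 0.107 and 0.0654). The chaperone Hspa5 gave 2.02. The epididymal genes gave 6.95 for Gpx5, 9.05 for Lcn8 and 12.6 for Lcn5.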

How the results depend on the processing

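The number of genes called between the genotypes was 4361, stayed between 3876 and 5010 under the refits on all 4 arrays, and was 3281 to 3879 with 1 array left out, taking the lone array to vary like the other groups. At a 1.5-fold minimum 2128 were called. Repeated quantile normalization gave 2438 higher genes, 25 higher fatty acid oxidation genes and 23 higher genes of complexes II to IV with cytochrome c. The last count was 7 after centring, 8 in the fit on 4 arrays and 7 to 12 with 1 array left out. Averaging probe sets left 7 TGF-beta ligand genes lower, and leaving out dim genes left 15 epididymal genes higher. The counts of lower genes stayed within 1.5 times in all alternatives run for the white adipocyte, adipogenic factor, fatty acid synthesis, insulin, TGF-beta induced, basement membrane, macrophage and smooth muscle lists, as did the higher counts of the brown fat effector and unfolded protein lists. Repeated quantile normalization moved other lists by more, to 11 lower lysosomal genes, 18 higher genes of the tricarboxylic acid cycle, 15 lower mitochondrial ribosomal genes, 15 higher genes of complex I and 7 of ATP synthase. Genes not called in the fit reported above changed sign. Centring gave -0.056 for Col1a1, -0.0080 for Il6 and -0.046 for Srebf1. Repeated quantile normalization gave 0.19 for Col1a2 (limma adjusted p = 0.0486), -0.015 for Il6, 0.080 for Nr4a1 and 0.14 for Srf. Averaging probe sets gave 0.036 for Col1a2 and 0.018 for Insr. With 1 array left out, Col1a1 ran from -0.050 to 0.059, Epcam from -0.0088 to 0.85, Il6 from -0.070 to 0.17, Srebf1 from -0.15 to 0.17, Tgfbr1 from -0.020 to 0.17 and Tnf from -0.084 to 0.22. The interaction of Cidea ran from -0.014 to 0.50. The cause of these changes was not tested. Of 211 named genes, 197 kept direction and call with averaged probe sets, 201 after repeated quantile normalization, 204 after centring and 202 to 206 with 1 array left out. The labels do not say what the letters a and b mark. Same-letter deviations correlated at -0.161 to 0.169 over 6 pairs of groups, which does not settle whether a letter marks a shared batch. With the letter as a replicate block 4358 genes were called. Dim probe sets limit the rest, since a wild-type level near background makes a fold a rough value.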
